A study of Saccharomyces cerevisiae S288C and Saccharomyces paradoxus NRRL Y-17217 and Saccharomyces mikatae IFO 1815 with 8 samples.

Results

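Gene expression was compared between 2 diploid yeasts of the genus Saccharomyces, the laboratory species S. cerevisiae and its closest relative in the series, S. paradoxus, as uniquely aligned reads per gene. The comparison used 4 of the 8 libraries: S. cerevisiae replicates 1 and 2 and S. paradoxus replicates 1 and 2. A gene entered when it was listed once in both species, when its annotated length in S. paradoxus was 0.9 to 1.1 times that in S. cerevisiae, and when at least 90% of its aligned reads were unique in each of the 4 libraries. Of the 6599 genes annotated in S. cerevisiae, 4345 were compared, and 1606 of these were not measured in at least one of the other 2 species of the series, S. mikatae and S. bayanus. Among the genes left out, 1135 had no gene of that name in S. paradoxus, 193 had more than 1, 577 fell outside the length limits and 349 had too few unique reads.

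The S. cerevisiae strain was the wild-type S288c diploid made by crossing FY4 with FY5, and the S. paradoxus strain was Y-17217. Each species was thus represented by 1 strain, so that species and strain cannot be told apart. Per the methods of the study, both were prototrophic diploids grown at the same temperature to exponential phase in minimal glucose medium without amino acids, whereas the sample labels give complete medium. Cultures of a species came from separate isolates, and replicate numbers mark the day of preparation: all libraries numbered 1 were made on one day (day 1) and those numbered 2 on another (day 2). RNA was depleted of ribosomal RNA and sequenced with strand kept. An extraction text in the labels names mouse cultures, which the yeast genes in the files go against.

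S. cerevisiae adjusts its transcriptome to nutrients through pathway-specific activators. GATA factors such as Gln3 and Gat1 switch on transporters and enzymes for poor nitrogen sources, Msn2 and Msn4 switch on genes of the general stress response, Zap1 those for zinc uptake and Gcn4 those for amino acid synthesis. The results below are ordered by pathway, and the part of growth condition in them was not tested.

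The 4 libraries held 4986745 to 12152480 uniquely aligned reads on genes, with the S. cerevisiae library of day 2 the deepest and that of day 1 the shallowest. The compared genes took 69.94 to 73.69% of these reads, with a median of 153 to 417 reads per gene. In log2 CPM (read counts per 1e6 reads, scaled by the trimmed mean of M values, TMM), the 2 replicates of a species correlated more closely across genes (r = 0.917 for S. cerevisiae and 0.947 for S. paradoxus) than the species did on the same day (0.856 and 0.849), over 4214 genes, which are not independent replicates. Differences between the days were shared in part: replicate 2 minus replicate 1 correlated at r = 0.382 between the species across these genes.

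With 4214 genes tested (10 or more reads in at least 2 libraries), 432 genes were higher and 575 lower in S. paradoxus at an adjusted p under 0.05, in edgeR's quasi-likelihood test with the replicate number as a block and Benjamini-Hochberg adjustment over all genes tested. These 1007 genes were 23.9% of those tested, 10.3% higher and 13.6% lower, and this is the background for every gene group below. Called or not, 27.6% of tested genes had both S. paradoxus libraries above both S. cerevisiae libraries, and 30.8% had both below. Those shares are the background wherever a lack of overlap between the species is given. The smallest called difference was 1.01 on the log2 scale, the median of the called differences 1.66, and 127 higher and 188 lower genes differed by at least 4-fold. Over all tested genes the median log2 fold change (S. paradoxus over S. cerevisiae, here and below) was -0.08, 66.8% of genes lay within 2-fold, and 92.5% within 4-fold. The test was fitted to both days, so agreement between the days is in part a result of the calling and no separate support. In 1006 of the 1007 called genes the direction was the same on both days, against 75.5% of all tested genes. The exception, AZR1, was singled out after its values were seen: it was 0.60 and 49.8 CPM in S. cerevisiae and 1.37 and 2.72 CPM in S. paradoxus. Without the replicate block 77 genes were higher and 130 lower (4.91% of those tested), all of them also called with the block. Leaving out a single library, with no block, gave 192 higher and 354 lower without S. cerevisiae replicate 1, 273 and 290 without S. cerevisiae replicate 2, 50 and 49 without S. paradoxus replicate 1, and 64 and 112 without S. paradoxus replicate 2.

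**Figure D1:**
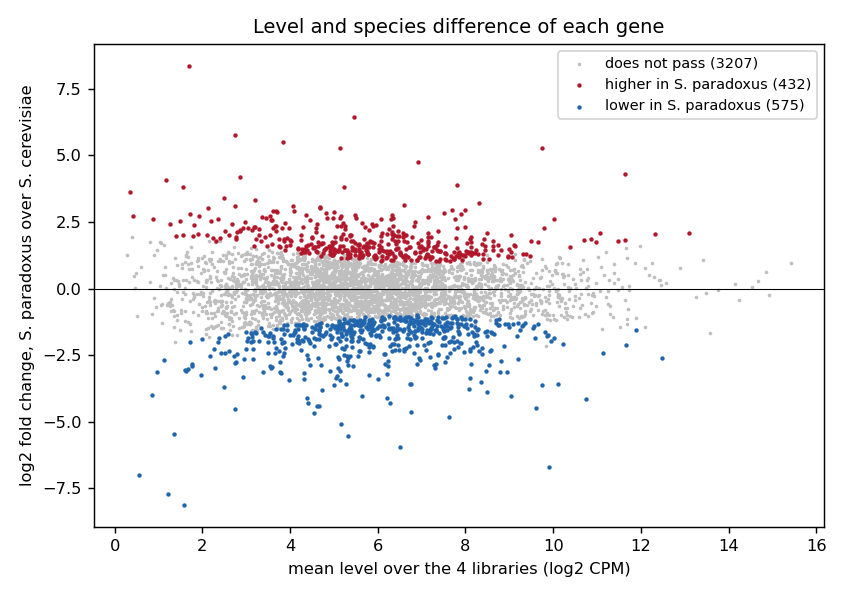
Each of the 4214 tested genes by its mean level over the 4 libraries (x, log2 CPM) and its log2 fold change of S. paradoxus over S. cerevisiae (y); red points are the 432 genes called higher, blue the 575 called lower and grey those that did not pass. Called genes occur from a few CPM up to the most abundant genes, and none lies within 1.01 of 0.

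**Figure D2:**
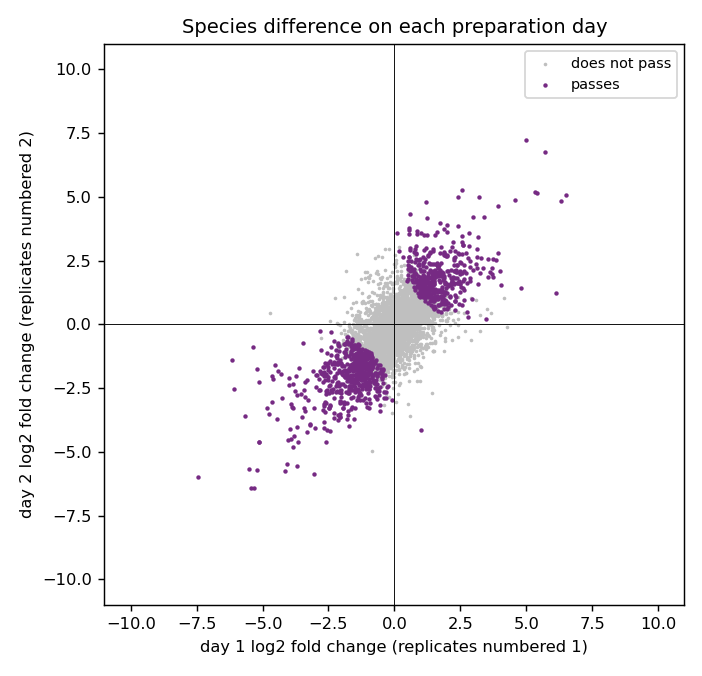
The log2 fold change of each tested gene between the libraries of day 1 (x) and of day 2 (y); purple points are the 1007 called genes. The 2 days correlated at r = 0.701 across genes, and 75.5% of all genes had the same sign on both.

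Among the 15 genes farthest below in S. paradoxus, 2 groups recurred. GAP1, GAT1 and DAL80 belong to nitrogen catabolite repression. HSP12, STF2, RGI1, GPH1 and EGO4 are known in S. cerevisiae for induction in stress or as growth slows. RPI1, a transcription factor linked to cell wall integrity, stood at 89.5 and 66.8 CPM in S. cerevisiae and at 2.28 and 1.19 CPM in S. paradoxus (log2 fold change -5.52 ± 0.53 (SE), adjusted p = 7.8e-08). SHH3, a mitochondrial membrane protein related to a succinate dehydrogenase subunit, had 13 and 55 reads in S. cerevisiae and 0 and 1 reads in S. paradoxus. Both S. paradoxus libraries lay below both S. cerevisiae libraries for each of these genes. The remaining members of the 15 were ICL1, RME1 and 3 genes with no read in S. paradoxus.

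Those 3 genes were OSI1, an aldehyde reductase, YBR099C and YCL021W-A. OSI1 had 16 and 64 reads in S. cerevisiae, so that it was at least 6.95-fold higher there on day 1 and 14.1-fold on day 2, setting a count of 0 against a floor of 3 reads per library. YBR099C had 17 and 38 reads (at least 7.38-fold and 8.35-fold) and overlaps YBR098W on the annotation. YCL021W-A had 13 and 18 reads (at least 5.64-fold and 3.95-fold). MF(ALPHA)2, one of the genes for the mating pheromone alpha-factor, was the reverse case, with no unique read in S. cerevisiae and 20 and 49 reads in S. paradoxus, at least 5.12-fold and 24.8-fold higher. MF(ALPHA)1, another gene for this pheromone, did not meet the entry limits. Under the limit on unique reads, a gene with no unique read in a library entered only if it had no aligned read there. The lack of MF(ALPHA)2 reads in S. cerevisiae therefore leaves out no reads shared with another gene. The floors cover counting error only.

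At the other end, SNO1 and SNZ1 (vitamin B6 synthesis), AGP1 (amino acid uptake), ZRT1 (zinc uptake), ARG3 (arginine synthesis) and OYE3 (an NADPH oxidoreductase) were among the 15 genes farthest above. PHO92, an RNA-binding protein that reads methylated adenosine in meiotic messages, had 0 and 3 reads in S. cerevisiae and 58 and 78 reads in S. paradoxus (log2 fold change 5.75 ± 0.84 (SE), adjusted p = 2.5e-05). PGU1, which cuts pectin, had 1 and 6 reads in S. cerevisiae and 156 and 122 reads in S. paradoxus (log2 fold change 5.49 ± 0.69 (SE), adjusted p = 3.7e-06). NFG1, described as a negative regulator of filamentous growth, was at 1.49 and 1.9 CPM in S. cerevisiae and at 69 and 68.8 CPM in S. paradoxus (log2 fold change 5.30 ± 0.54 (SE), adjusted p = 1.4e-07). All 3 were far above in both S. paradoxus libraries, with no overlap. ROF1, YLR012C, YDL241W, PRM3 and REX4 completed the 15, at log2 fold changes of 4.18, 4.06, 3.81, 3.62 and 3.39. PRM3, which acts in nuclear fusion during mating, rested on 1 and 1 reads in S. cerevisiae and 10 and 14 reads in S. paradoxus.

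Genes under nitrogen catabolite repression included some of the lowest values in S. paradoxus. In the list of such genes 4 of its 41 tested members passed as higher and 13 as lower, and the median log2 fold change over the tested members was -0.51 (all genes: -0.08); with no replicate block the numbers passing were 1 and 6. GAP1 (YKR039W, chromosome XI, 514705 to 516513, plus strand, sacCer2), the general amino acid permease, stood at 2814 and 1017 CPM in S. cerevisiae and at 16 and 16.1 CPM in S. paradoxus (log2 fold change -6.71 ± 0.61 (SE), adjusted p = 3.8e-08). GAT1 (YFL021W, chromosome VI, 95964 to 97496, plus strand), a GATA activator of this pathway, was at 330 and 89.9 CPM in S. cerevisiae and at 6.39 and 7.3 CPM in S. paradoxus (log2 fold change -4.63 ± 0.51 (SE), adjusted p = 4.4e-07). S. cerevisiae was the high species for both genes on both days, and its day 1 library was the higher of the pair. DAL80, a GATA repressor, had 77 and 30 reads in S. cerevisiae and 1 and 3 reads in S. paradoxus (log2 fold change -4.52 ± 0.87 (SE), adjusted p = 0.00051). It overlaps another annotated gene. In the study's qPCR on separate cultures the DAL80 levels of the species overlapped, so that this difference was not seen there.

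Among transporters and enzymes of the list, PUT4, the proline permease, was at 65.4 and 34.6 CPM in S. cerevisiae and at 2.51 and 4.08 CPM in S. paradoxus (log2 fold change -3.82 ± 0.55 (SE), adjusted p = 2.1e-05). PUT1, proline oxidase, was at 148 and 117 CPM in S. cerevisiae and at 17.6 and 11.9 CPM in S. paradoxus (log2 fold change -3.19 ± 0.42 (SE), adjusted p = 7.4e-06). The allantoin pathway genes DAL7, DAL3 and DCG1 were also lower, at -3.57, -3.15 and -1.49, as were the oligopeptide transporter OPT2 (-3.43), the vacuolar carboxypeptidase CPS1 (-2.42), the glutamate dehydrogenase of glutamate breakdown GDH2 (-1.75) and the proline pathway activator PUT3 (-1.01). DAL5, the allantoate permease, passed as lower (-1.55) mainly through S. cerevisiae of day 1: it was at 131 and 23.8 CPM in S. cerevisiae and at 18.3 and 19.9 CPM in S. paradoxus, and its log2 fold change was -2.83 on day 1 and -0.26 on day 2. Not every gene of the list went that way. MEP2, an ammonium permease, was at 3215 and 135 CPM in S. cerevisiae and at 122 and 183 CPM in S. paradoxus and did not pass (log2 fold change -2.15 ± 0.91 (SE), adjusted p = 0.085): S. cerevisiae of day 1 stood apart from the other 3 libraries. The ammonium permease MEP1 (0.40 ± 0.39, adjusted p = 0.47), the GATA activator GLN3 (-0.34 ± 0.39, adjusted p = 0.56) and its inhibitor URE2 (0.67 ± 0.40, adjusted p = 0.22) did not pass either.

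AGP1 (YCL025C, chromosome III, 76018 to 77919, minus strand), a broad-specificity amino acid permease, was the reverse of GAP1. It was at 8.63 and 8.84 CPM in S. cerevisiae and at 210 and 260 CPM in S. paradoxus (log2 fold change 4.75 ± 0.44 (SE), adjusted p = 3.8e-08), with both S. paradoxus libraries far above. GDH1, which makes glutamate from ammonium, was at 4903 and 681 CPM in S. cerevisiae and at 7179 and 7852 CPM in S. paradoxus (log2 fold change 2.04 ± 0.75 (SE), adjusted p = 0.048), and without S. cerevisiae replicate 2 its log2 fold change was 0.67 and did not pass. CAR2 (1.20) and APE1 (1.47) were the other members called higher; CAR2 was -0.11 without S. paradoxus replicate 2. Amino acid permeases as a class divided: 5 of its 20 tested members passed as higher and 5 as lower, and the median log2 fold change over the tested members was -0.40. DIP5, which takes up acidic amino acids, was at 49.1 and 45.5 CPM in S. cerevisiae and at 353 and 379 CPM in S. paradoxus (log2 fold change 2.95 ± 0.40 (SE), adjusted p = 1.1e-05), and BAP3 (2.28), GNP1 (1.56) and MMP1 (1.41; 0.55 on day 1 and 2.29 on day 2) were also higher. With no replicate block 2 and 2 of the class passed. Lower were GAP1, PUT4, the methionine permease MUP1 (-2.50), AGP2 (-1.51) and PTR3 (-1.68), a part of the amino acid sensor.

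The letters GATAAG, the core bound by GATA factors, are shown in capitals (either strand) in the 300 bases before the start codon of GAP1, GAT1 and AGP1, since these carry the contrast between lower and higher genes. The sequences are of S. cerevisiae (RefSeq, build R64, chromosome positions chrXI:514763-515062, chrVI:95666-95965 and chrIII:77920-78219, the last on the minus strand).
GAP1: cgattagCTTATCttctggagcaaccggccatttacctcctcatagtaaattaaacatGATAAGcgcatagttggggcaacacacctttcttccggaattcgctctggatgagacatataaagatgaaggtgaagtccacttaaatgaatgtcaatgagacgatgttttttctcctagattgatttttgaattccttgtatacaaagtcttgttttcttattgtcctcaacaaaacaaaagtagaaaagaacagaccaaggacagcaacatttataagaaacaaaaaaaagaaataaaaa
GAT1: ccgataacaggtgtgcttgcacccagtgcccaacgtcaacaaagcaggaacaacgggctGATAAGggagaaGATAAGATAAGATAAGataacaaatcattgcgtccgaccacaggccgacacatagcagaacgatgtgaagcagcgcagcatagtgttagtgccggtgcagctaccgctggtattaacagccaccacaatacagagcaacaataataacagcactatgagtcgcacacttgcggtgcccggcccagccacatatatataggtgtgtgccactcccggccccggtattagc
AGP1: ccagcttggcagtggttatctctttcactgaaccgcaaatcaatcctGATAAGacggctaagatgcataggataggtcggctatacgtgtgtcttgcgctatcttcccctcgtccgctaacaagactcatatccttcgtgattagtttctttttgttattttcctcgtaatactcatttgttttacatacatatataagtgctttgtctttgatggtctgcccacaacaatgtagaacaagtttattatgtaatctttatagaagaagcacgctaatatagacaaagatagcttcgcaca
GAP1 held 2 matches, GAT1 4, of which 3 overlap, and AGP1 1. Of the 4200 tested genes with a promoter of this length, 15% held GATAAG, against 12.8% of called higher genes and 17.7% of called lower ones. In the nitrogen list 24 of 41 did, with 9 of the 13 lower and 1 of the 4 higher members. The S. paradoxus promoters were not analysed here.

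**Figure D3:**
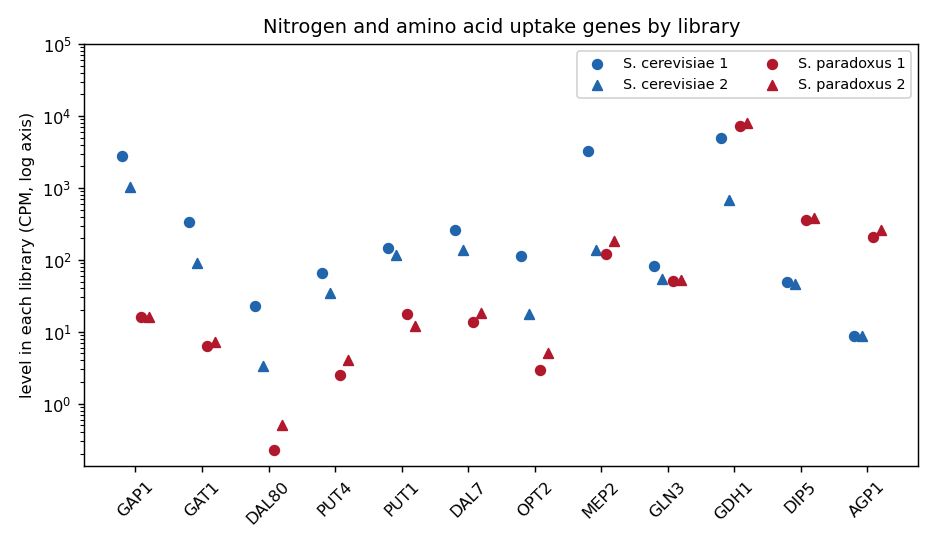
Level of 12 nitrogen and amino acid uptake genes in each library (y, CPM on a log axis); blue is S. cerevisiae and red S. paradoxus, circles are day 1 and triangles day 2. For GAP1, GAT1, DAL80, PUT4, PUT1, DAL7 and OPT2 both red points lie below both blue ones, for DIP5 and AGP1 above, and for MEP2 and GLN3 the species overlap or meet.

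General stress genes were mostly lower in S. paradoxus. Of the list, 2 of its 33 tested members passed as higher and 18 as lower, and the median log2 fold change over the tested members was -1.54; with no block 0 and 11 passed. HSP12 (YFL014W, chromosome VI, 107250 to 107579, plus strand), a small membrane-associated protein made in stress, had the lowest adjusted p of the genes named here, at 133 and 225 CPM in S. cerevisiae and at 3.2 and 2.55 CPM in S. paradoxus (log2 fold change -5.93 ± 0.50 (SE), adjusted p = 2.3e-08). STF2, linked to survival of drying, was at 34.5 and 105 CPM in S. cerevisiae and at 1.83 and 1.87 CPM in S. paradoxus (log2 fold change -5.10 ± 0.57 (SE), adjusted p = 5.5e-07). CTT1, the cytosolic catalase, was at 122 and 450 CPM in S. cerevisiae and at 27.6 and 33 CPM in S. paradoxus (log2 fold change -2.97 ± 0.44 (SE), adjusted p = 3.1e-05). In all 3 the S. cerevisiae library of day 2 was the highest of the 4. ALD4 (-3.86), UIP4 (-3.31), SPI1 (-2.91), GRE2 (-2.35), TFS1 (-2.12), DCS2 (-2.11) and RTC3 (-2.02) were lower as well. The activators themselves did not pass: MSN4 was at 147 and 202 CPM in S. cerevisiae and at 92.5 and 89.7 CPM in S. paradoxus (log2 fold change -0.92 ± 0.37 (SE), adjusted p = 0.073) and MSN2 at 148 and 252 CPM in S. cerevisiae and at 202 and 285 CPM in S. paradoxus (log2 fold change 0.31 ± 0.38 (SE), adjusted p = 0.58). The 2 members called higher were GRE1 (1.93) and YGP1, a secreted glycoprotein at 212 and 1881 CPM in S. cerevisiae and at 2371 and 2181 CPM in S. paradoxus (log2 fold change 1.84 ± 0.68 (SE), adjusted p = 0.048), where S. cerevisiae of day 1 stood below the rest.

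Storage carbohydrate genes, which make and break down trehalose and glycogen, were lower in most cases: in this list 0 of its 16 tested members passed as higher and 11 as lower, and the median log2 fold change over the tested members was -1.51, and with no block 0 and 4 passed. GPH1, glycogen phosphorylase, was at 422 and 2619 CPM in S. cerevisiae and at 50.5 and 44.8 CPM in S. paradoxus (log2 fold change -4.47 ± 0.62 (SE), adjusted p = 1.4e-05), and its log2 fold change was -3.06 on day 1 and -5.87 on day 2. GLC3, the glycogen branching enzyme, was at 168 and 1184 CPM in S. cerevisiae and at 50.7 and 73.9 CPM in S. paradoxus (log2 fold change -2.88 ± 0.51 (SE), adjusted p = 0.00023). For both, the S. cerevisiae library of day 2 was several times that of day 1 while the S. paradoxus libraries were close. The glycogen synthases GSY2 (-2.31) and GSY1 (-1.45), the primer GLG1 (-2.62), the debranching enzyme GDB1 (-1.41) and phosphoglucomutase PGM2 (-1.59) were lower too. For trehalose, TPS1 was at 1051 and 2220 CPM in S. cerevisiae and at 351 and 502 CPM in S. paradoxus (log2 fold change -1.86 ± 0.47 (SE), adjusted p = 0.0056) and its partner TSL1 at 1160 and 1736 CPM in S. cerevisiae and at 391 and 441 CPM in S. paradoxus (log2 fold change -1.77 ± 0.46 (SE), adjusted p = 0.0067). TPS2 (-1.57) and the trehalase ATH1 (-1.16) also passed. The list's median was -1.36 on day 1 and -1.81 on day 2. Of the lower members, TPS1, TPS2, TSL1, PGM2, GSY2 and GLC3 are also counted in the general stress list, so that these lists are not separate results.

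Heat shock proteins and chaperones that passed were all lower: 0 of its 35 tested members passed as higher and 11 as lower, and the median log2 fold change over the tested members was -0.51; with no block 0 and 6 passed. HSP104, which pulls proteins out of aggregates, was at 829 and 2393 CPM in S. cerevisiae and at 138 and 97.3 CPM in S. paradoxus (log2 fold change -3.60 ± 0.56 (SE), adjusted p = 4.7e-05). HSP42 (-2.08), STI1 (-2.43), APJ1 (-2.16), BTN2 (-3.38), CUR1 (-2.88) and HSP30 (-1.78) were lower. HSP26, a small heat shock protein, was at 45.5 and 11.1 CPM in S. cerevisiae and at 29.2 and 44 CPM in S. paradoxus and did not pass (0.68 ± 0.54, adjusted p = 0.38). Markers of stationary phase did not move as one in the libraries: of 6 compared, 3 of the 5 tested were higher (SNZ1, GRE1 and YGP1) and 2 lower (HSP12 and SPI1), and their summed level was 456 and 2363 CPM in S. cerevisiae and 4051 and 3901 CPM in S. paradoxus, mostly SNZ1 and YGP1. The part of growth stage in the stress results was not tested.

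AGGGG, the core of the site bound by Msn2 and Msn4, is in capitals on either strand for HSP12 and TSL1 (chrVI:106956-107255 and chrXIII:70324-70623, R64, plus strand). Both genes are in the general stress list, HSP12 also in the heat shock list and TSL1 also in the storage carbohydrate list.
HSP12: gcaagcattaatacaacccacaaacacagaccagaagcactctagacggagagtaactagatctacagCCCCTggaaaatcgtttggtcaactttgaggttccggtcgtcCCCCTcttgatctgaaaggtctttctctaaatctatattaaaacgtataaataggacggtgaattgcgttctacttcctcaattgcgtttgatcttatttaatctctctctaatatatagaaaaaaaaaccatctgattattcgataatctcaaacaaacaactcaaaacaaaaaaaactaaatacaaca
TSL1: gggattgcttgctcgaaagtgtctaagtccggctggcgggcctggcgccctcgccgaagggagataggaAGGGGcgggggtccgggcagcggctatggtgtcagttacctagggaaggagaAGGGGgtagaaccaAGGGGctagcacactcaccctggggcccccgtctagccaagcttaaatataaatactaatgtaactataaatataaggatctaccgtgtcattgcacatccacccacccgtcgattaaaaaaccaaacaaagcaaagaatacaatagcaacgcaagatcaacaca
HSP12 held 2 matches and TSL1 3. AGGGG stood in 22.7% of the 4200 promoters, in 18.4% of called higher and 33.4% of called lower genes. In the general stress list 26 of 33 held it, among them 16 of the 18 lower members and neither of the 2 higher ones.

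**Figure D4:**
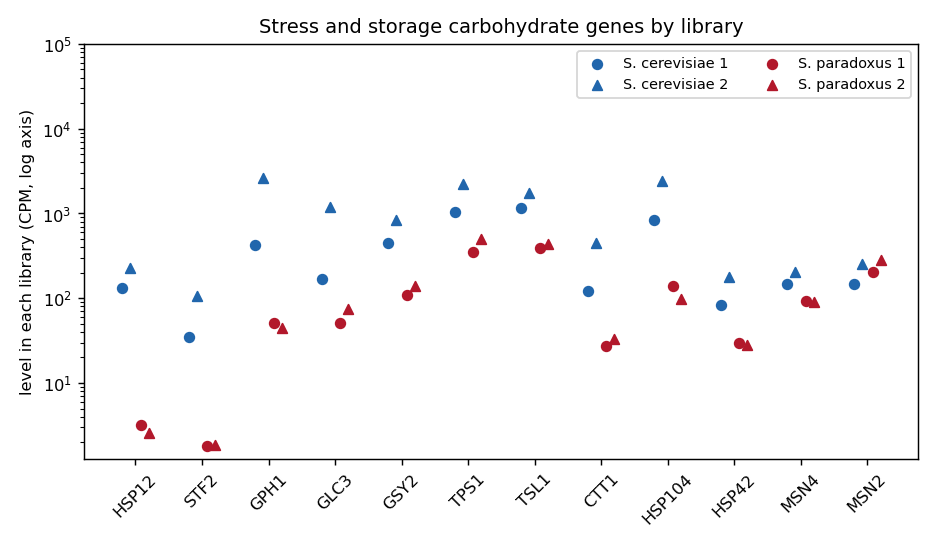
Level of 12 stress and storage carbohydrate genes in each library (y, CPM on a log axis); blue is S. cerevisiae and red S. paradoxus, circles are day 1 and triangles day 2. Both red points lie below both blue ones except for MSN2, and the blue triangle is the highest point for every gene but MSN2.

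Among oxidative stress genes calls were made in both directions, with 7 of 33 higher and 3 lower (median 0.17). With no replicate block 1 was higher and 2 were lower, so that the balance turned. OYE3 was at 6.54 and 3.81 CPM in S. cerevisiae and at 69.7 and 70.8 CPM in S. paradoxus (log2 fold change 3.83 ± 0.48 (SE), adjusted p = 4e-06). TSA1, the main thioredoxin peroxidase, was at 4021 and 2582 CPM in S. cerevisiae and at 10344 and 18264 CPM in S. paradoxus (log2 fold change 2.09 ± 0.70 (SE), adjusted p = 0.029). SRX1, which repairs oxidised peroxiredoxin, was at 2.53, and GTT2 (1.91), GPX2 (1.66), SFA1 (1.54) and TSA2 (1.20) were higher. YHB1, the flavohemoglobin that removes nitric oxide, was opposite, at 167 and 127 CPM in S. cerevisiae and at 10.1 and 5.43 CPM in S. paradoxus (log2 fold change -4.29 ± 0.45 (SE), adjusted p = 2.1e-07). It was also lower in S. paradoxus in the study's qPCR on separate cultures. GRX2 (-1.68) and CTT1 were the others lower.

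Metal genes did not share a direction. ZRT1 (YGL255W, chromosome VII, 20978 to 22108, plus strand), the high-affinity zinc transporter, was at 447 and 210 CPM in S. cerevisiae and at 6783 and 5260 CPM in S. paradoxus (log2 fold change 4.29 ± 0.62 (SE), adjusted p = 2.4e-05). ZPS1, a cell surface protein of low-zinc cells, was at 18.1 and 17.8 CPM in S. cerevisiae and at 246 and 106 CPM in S. paradoxus (log2 fold change 3.15 ± 0.43 (SE), adjusted p = 1.2e-05), and MNT2 was 1.38. The activator ZAP1 was at 135 and 63.7 CPM in S. cerevisiae and at 165 and 132 CPM in S. paradoxus and did not pass (0.67 ± 0.38, adjusted p = 0.2). Other genes of the zinc list were lower: IZH4 (-2.64), IZH1 (-2.40), ZRG17 (-1.48) and FET4 (-1.49; -0.33 on day 1 and -2.64 on day 2); of the list, 3 of its 15 tested members passed as higher and 4 as lower, and the median log2 fold change over the tested members was -0.73, and with no block 2 and 1 passed. The ZRT1 promoter holds 1 match, in capitals, to a form of the Zap1 site (ACCTT, any base, AAGGT, its own reverse complement) that was added after values were seen (chrVII:20678-20977, R64, plus strand), and 5 of the 4200 promoters (0.119%) do.
ZRT1: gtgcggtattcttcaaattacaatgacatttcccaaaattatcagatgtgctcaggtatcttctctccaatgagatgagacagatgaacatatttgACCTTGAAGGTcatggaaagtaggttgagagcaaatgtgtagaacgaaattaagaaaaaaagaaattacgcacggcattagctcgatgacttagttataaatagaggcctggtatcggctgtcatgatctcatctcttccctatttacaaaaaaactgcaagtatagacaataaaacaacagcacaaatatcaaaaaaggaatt
In the iron regulon 6 of 30 genes were higher and 7 lower, and with no block 2 and 1. FTR1, the high-affinity iron permease, was at 381 and 276 CPM in S. cerevisiae and at 64.2 and 46.2 CPM in S. paradoxus (log2 fold change -2.57 ± 0.39 (SE), adjusted p = 4.2e-05), and ARN2 (-2.08), FET5 (-1.49) and FTH1 (-1.31) were lower. The glutaredoxin GRX4 (2.14), its partner BOL2 (1.98), the reductases FRE1 (1.57) and FRE3 (1.56) and the siderophore transporter SIT1 (1.56) were higher.

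Vitamin B6 genes were 2 of the 15 genes farthest above in S. paradoxus. SNZ1 (YMR096W, chromosome XIII, 458407 to 459300, plus strand), a subunit of pyridoxal phosphate synthase, was at 41.1 and 45.9 CPM in S. cerevisiae and at 1656 and 1685 CPM in S. paradoxus (log2 fold change 5.26 ± 0.53 (SE), adjusted p = 1.4e-07). SNO1, its partner gene, had 4 and 8 reads in S. cerevisiae and 310 and 610 reads in S. paradoxus (log2 fold change 6.45 ± 0.57 (SE), adjusted p = 2.7e-08). The genes are neighbours and diverge from one intergenic region. TGACTC, the core bound by Gcn4 and also by Bas1, is in capitals in the bases before SNZ1 (chrXIII:458108-458407, R64, plus strand), where it occurs 2 times.
SNZ1: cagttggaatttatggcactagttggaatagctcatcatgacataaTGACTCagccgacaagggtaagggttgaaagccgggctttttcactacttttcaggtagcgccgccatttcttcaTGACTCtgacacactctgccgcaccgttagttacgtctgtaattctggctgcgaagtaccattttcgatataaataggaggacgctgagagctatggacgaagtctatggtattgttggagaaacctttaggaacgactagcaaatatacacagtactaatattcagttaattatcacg
TGACTC stood in 8.74% of the 4200 promoters, in 5.58% of called higher and 7.34% of called lower genes. THI6 of thiamine synthesis was higher (1.57) and PDX3, which makes pyridoxal phosphate from other vitamers, lower (-1.14; -1.79 on day 1 and -0.51 on day 2). In the biotin and NAD list 7 of 20 genes were higher and 3 lower, and with no block 1 and 1. BIO4, dethiobiotin synthetase, was at 55.3 and 62.1 CPM in S. cerevisiae and at 395 and 755 CPM in S. paradoxus (log2 fold change 3.22 ± 0.43 (SE), adjusted p = 9.9e-06). The other biotin genes BIO3 (1.79), BIO2 (1.36) and BIO5 (1.49; 0.34 on day 1 and 2.64 on day 2) were higher too, as were BNA4 (2.08) and BNA2 (1.23) of the kynurenine pathway to NAD. NPT1 (-2.04), BNA5 (-1.44) and the nicotinic acid permease TNA1 (-1.29) were lower.

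Calls among lipid genes differed in direction between lists. Sterol synthesis was higher where it was called: 6 of its 26 tested members passed as higher and 0 as lower, and the median log2 fold change over the tested members was 0.34; with no block 2 and 0 passed. ERG28 (2.17), ERG4 (1.76), CYB5 (1.72), ERG5 (1.62), ERG12 (1.38) and ERG3 (1.13) passed, and the activator UPC2 did not (-1.19 ± 0.45, adjusted p = 0.058). Inositol and phospholipid genes were lower more often, with 6 of 21 lower and 1 higher (median -1.01); with no block none of them passed. INO1, which makes inositol phosphate and was very abundant in all libraries, was at 22343 and 14966 CPM in S. cerevisiae and at 5629 and 6027 CPM in S. paradoxus and did not pass (-1.65 ± 0.70, adjusted p = 0.086), and ITR1, the inositol transporter, did not either (-1.43 ± 0.58, adjusted p = 0.074). PCT1 (-2.56), INO4 (-2.53), OPI1 (-1.52) and CHO1 (-1.34) were lower and PIS1 (1.55) higher. The other lower members, GUT1 (-1.58) and GUT2 (-1.84), are enzymes of glycerol use. OLE1, the fatty acid desaturase, was at 3818 and 16542 CPM in S. cerevisiae and at 1333 and 1254 CPM in S. paradoxus (log2 fold change -2.62 ± 0.70 (SE), adjusted p = 0.0082), with S. cerevisiae of day 2 far above the other 3. Of the sphingolipid genes SUR2 (-2.21) was lowest, and TSC3 did not pass (-1.10 ± 0.43, adjusted p = 0.065).

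Genes of mating and meiosis were mostly at low levels in these diploid strains. RME1, a repressor of meiosis that haploid cells make, was at 41.4 and 54.9 CPM in S. cerevisiae and at 2.74 and 1.87 CPM in S. paradoxus (log2 fold change -4.39 ± 0.56 (SE), adjusted p = 4.1e-06). GPA1, the pheromone-pathway G protein alpha subunit, was at 2.38 and 3.13 CPM in S. cerevisiae and at 24.4 and 19.2 CPM in S. paradoxus (log2 fold change 2.93 ± 0.57 (SE), adjusted p = 0.00058), while the beta subunit STE4 was at 20.2 and 24.9 CPM in S. cerevisiae and at 4.34 and 6.62 CPM in S. paradoxus (log2 fold change -2.05 ± 0.52 (SE), adjusted p = 0.0059). FAR1, which arrests the cycle on pheromone, had 4 and 7 reads in S. cerevisiae and 34 and 46 reads in S. paradoxus (log2 fold change 3.03 ± 0.70 (SE), adjusted p = 0.0027). The haploid-specific list thus went in both directions: of its 10 tested members 2 passed as higher and 3 as lower, NEJ1 (-2.53) among the latter. With no block 1 and 1 passed. Of the markers of haploid a cells, 3 of 7 were compared and none of the 2 tested passed. Their summed level was 24.99 and 45.11 CPM in S. cerevisiae and 23.8 and 40.8 CPM in S. paradoxus. Haploid alpha markers summed to 94.9 and 103 CPM against 156 and 154 CPM, with only MF(ALPHA)2 passing of 4 tested. Meiosis markers summed to 77.3 and 73.4 CPM against 37.2 and 30.9 CPM, with SPS100 (-2.95) and NDT80 (-1.73) lower and DIT2 (1.92) higher. IME1 had at most 7 reads in a library.

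Daughter-cell genes, which daughter cells express to part from the mother, were lower where called: 0 of its 11 tested members passed as higher and 5 as lower, and the median log2 fold change over the tested members was -0.97; with no block 0 and 5 passed. CTS1, the endochitinase of cell separation, was at 3060 and 3408 CPM in S. cerevisiae and at 112 and 299 CPM in S. paradoxus (log2 fold change -4.14 ± 0.58 (SE), adjusted p = 1.4e-05). DSE2, a daughter-specific wall enzyme, was at 821 and 772 CPM in S. cerevisiae and at 71.3 and 116 CPM in S. paradoxus (log2 fold change -3.13 ± 0.45 (SE), adjusted p = 2e-05). DSE1 (-2.11), SCW11 (-2.02) and the daughter-nucleus repressor ASH1 (-1.88) passed as well. In the cell wall list calls were more often higher, with 9 of 35 higher and 4 lower, and with no block 1 and 1. The higher ones were MNN4 (2.96), YGP1 (1.84), CWP1 (1.82), MNN9 (1.76), KTR3 (1.61), MNN5 (1.39), CHS2 (1.39), GAS3 (1.33) and OCH1 (1.14), and the lower ones SPI1 (-2.91), KTR1 (-1.75), GSC2 (-1.55) and FLO8 (-1.43). In the list of cyclins and cell cycle regulators 2 of 24 genes were higher and 2 lower, below the background, and with no block 1 and 1. CLB4 (2.48) and CLB6 (2.12, with 0.56 on day 1 and 3.77 on day 2) were higher. The G1 repressor WHI5 (-1.48) and ASH1 were lower.

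In carbon metabolism calls fell in both directions. In the list of gluconeogenesis and the glyoxylate cycle 1 of its 9 tested members passed as higher and 3 as lower, and the median log2 fold change over the tested members was 0.34; with no block 0 and 2 passed. ICL1, isocitrate lyase, was at 30.9 and 59.3 CPM in S. cerevisiae and at 2.28 and 1.19 CPM in S. paradoxus (log2 fold change -4.67 ± 0.61 (SE), adjusted p = 5.9e-06). FBP1, of gluconeogenesis, went the other way, at 2.98 and 15 CPM in S. cerevisiae and at 42 and 54.5 CPM in S. paradoxus (log2 fold change 2.66 ± 0.52 (SE), adjusted p = 0.00061). ACS1 (-2.71) and ADR1 (-1.70; -0.59 on day 1 and -2.78 on day 2) were lower. In the respiratory chain and ATP synthase 3 of its 29 tested members passed as higher and 5 as lower, and the median log2 fold change over the tested members was -0.30, close to the background; with no block 1 and 1 passed. Its higher members were COX12 (2.03), NDE2 (1.42) and ATP20 (1.25) and its lower ones QCR8 (-2.30), TIM11 (-1.85), NDI1 (-1.57), QCR7 (-1.35) and ATP16 (-1.22). Of the tricarboxylic acid cycle 4 of 19 genes were lower and none higher (SDH2 -2.66, MDH1 -1.70, SDH1 -1.69, SDH4 -1.07), and with no block 0 and 2 passed as higher and lower. The list of mitochondrial ribosomal proteins had 14 of 68 lower and 5 higher (with no block 2 and 1), with MRPL20 (-3.37) and MRPL11 (3.03) at the ends. These counts include KGD4 (-1.63) and PPE1 (1.41), which are not established ribosomal proteins. Of the sugar regulators GAL4 (-3.08), GAL80 (-2.83), MTH1 (-3.27) and RGT1 (-1.83) were lower and GAL3 (1.91) higher. The galactose pathway enzyme GAL10 (1.93) was higher, and GAL1 (0.28) did not pass. In the glycolysis and fermentation list 3 of 16 genes were higher and 1 lower, and with no block 0 and 0 passed. GPD1 (1.56) and GPP1 (1.86), which make glycerol, and ALD6 (1.79), which makes acetate, were higher, and PYK2 (-1.31) was lower.

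In amino acid synthesis ARG3, ornithine carbamoyltransferase, was at 76.7 and 9.18 CPM in S. cerevisiae and at 455 and 360 CPM in S. paradoxus (log2 fold change 3.90 ± 0.54 (SE), adjusted p = 1.3e-05), and of the arginine list 3 of 12 genes were higher and 1 lower, the regulator ARG81 (-1.53). Of 14 aromatic amino acid genes PHA2 (2.42), ARO80 (1.85) and TYR1 (1.52) were higher and ARO3 (-1.23) lower. LYS12 (2.02) was higher among 7 lysine genes and ILV6 (1.23) among 9 branched-chain genes, and none of the 5 tested histidine genes passed. With no replicate block 1 gene of these 5 lists passed, in the aromatic list. In sulfur metabolism 4 of 30 genes were higher and 3 lower, close to the background, and none passed with no block. The list's median changed sign between the days, from -0.69 on day 1 to 0.73 on day 2. The higher ones were MHT1 (2.28), MET8 (1.45), MMP1 (1.41) and MET22 (1.28), and the lower ones SUL1 (-3.11), MUP1 (-2.50) and MET17 (-2.10). MHT1 was 0.57 on day 1 and 4.32 on day 2, and MET8 was 0.53 and 2.34. The sulfate permease SUL1 was at 1156 and 152 CPM in S. cerevisiae and at 27.9 and 82 CPM in S. paradoxus, a log2 fold change of -5.37 on day 1 and -0.89 on day 2, and MET17 was -3.48 on day 1 and -0.71 on day 2: for both S. cerevisiae of day 1 was far the highest library. Of purine synthesis PRS1 (2.09), ADE4 (1.93) and PRS3 (1.56) were higher and the activator BAS1 (-1.37) lower, of 18 tested. Ribosome biogenesis genes, 101 tested, were called in both directions at close to the background (12 higher, 11 lower), with REX4 (3.39) and NOP4 (-2.98) at the ends. In the proteasome, 5 of 31 genes were lower (2 with no block), RPN11 (-2.48) and RPT2 (-2.26) the most, and UMP1 (1.23), an assembly chaperone, was higher. NCE102 was lower (-2.65 ± 0.50, adjusted p = 0.00041), but its levels in the species overlapped in the study's qPCR on separate cultures. IPP1, inorganic pyrophosphatase, was at 1201 and 1015 CPM in S. cerevisiae and at 861 and 1292 CPM in S. paradoxus and did not pass (-0.07 ± 0.47, adjusted p = 0.93). YMR027W was at 133 and 227 CPM in S. cerevisiae and at 317 and 369 CPM in S. paradoxus and did not pass (0.98 ± 0.39, adjusted p = 0.068).

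**Figure D5:**
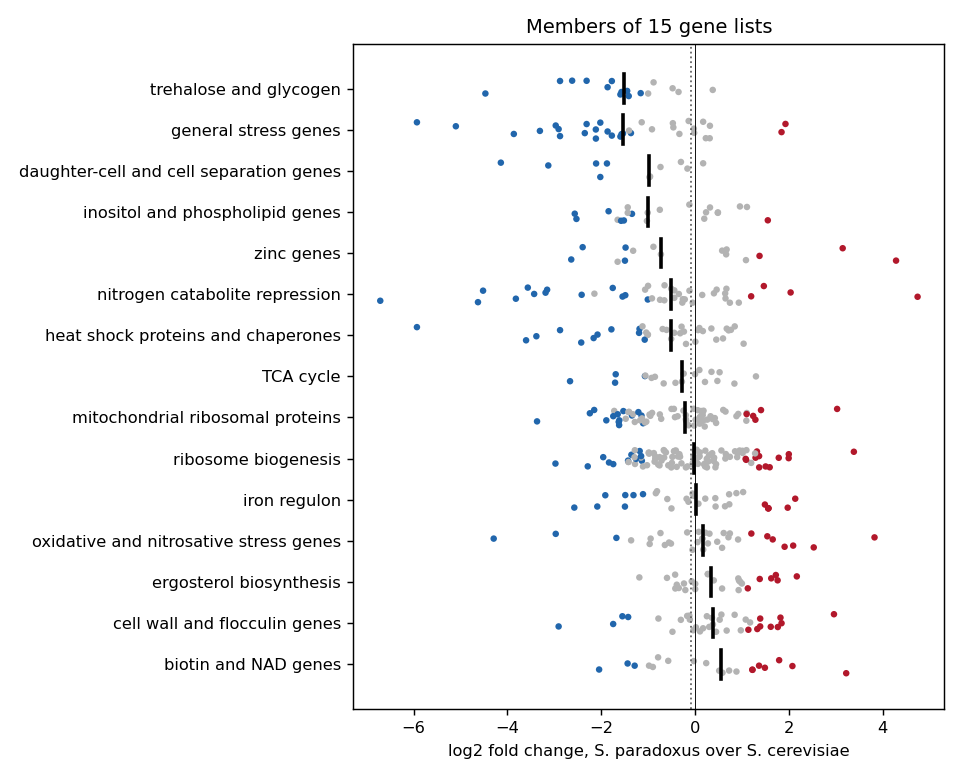
Log2 fold change of S. paradoxus over S. cerevisiae (x) for the tested members of 15 gene lists (rows); red and blue points are genes called higher and lower, grey points did not pass, black bars are list medians and the dotted line is the median of all tested genes, -0.08. Trehalose and glycogen and general stress genes, which share members, have the lowest medians, -1.51 and -1.54, and biotin and NAD genes the highest shown, 0.55.

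The share of genes called was also taken by depth, length and position, with no test of these differences. Of genes with a mean under 50 reads 17.6% were called, and of those with 200 to 1000 reads 27.9%. Genes under 1000 bases were called in 27.7% of cases and those over 2000 bases in 19.6%, at median levels of 27.9 and 99.2 CPM. Genes with TATAAA in the 300 bases upstream were called in 25.9% of cases and those without in 22%. Genes overlapping another annotated gene (GAT1, DAL7, GPH1 and CTS1 among those above) were called in 26.5%, the rest in 23.6%; strand was kept in counting, so overlaps on the same strand are the uncertain ones. Of 1064 diverging neighbour pairs 44 were both called in the same direction and 19 in opposite directions, against 26 and 30 of 1064 converging pairs. Within 15000 bases of a chromosome end 16 genes were tested, 3 higher and 3 lower. By chromosome the median log2 fold change lay between -0.33 and 0.09 except on chromosome VI, where it was -0.58 over 83 genes (-0.48 on day 1 and -0.57 on day 2). On that chromosome 57 of the 83 genes were below 0, and 7 were called higher and 14 lower; DNA copy number was not measured. The remaining 131 compared genes had too few reads to be tested, and 10 of them had no read in the 4 libraries.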

How the data were processed

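Reads came from strand-specific SOLiD libraries of ribosome-depleted RNA. The authors used the aligner MOSAIK on the genome of each species (S. cerevisiae: sacCer2, per the submitters' processing notes), allowing few mismatches, and reads per annotated gene were deposited as raw counts, unnormalized, of uniquely aligned and of all aligned reads. The unique counts were used here. They depend on gene length and on the quality of each species' annotation, and gene pairs outside the length and uniqueness limits were left out.

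Genes with 10 or more counts in at least 2 of the 4 libraries were fitted with edgeR 4.0.16 (TMM scaling, quasi-likelihood test, replicate number as block, R 4.3.3). The files' notes give the replicate number as the preparation day, which is the source of the pairing, and replicate differences correlated between the species (r = 0.382). With 1 residual degree of freedom per gene, the test borrows its spread from all genes (prior degrees of freedom 25.28). Called means a Benjamini-Hochberg adjusted p under 0.05. Each SE was derived from the test, as the absolute log2 fold change divided by the square root of the F statistic. Day fold changes used a pseudocount of 0.5 counts. On data simulated for this comparison over 4214 genes, the test called 86% of the genes given a 4-fold change, 24% at 2-fold, and 0.0997% of the genes left alone. The changed genes were a small part of the total, all with a mean of at least 50 reads, and the spread was the fit's own estimate. The 86% and 24% therefore do not cover genes with fewer reads. Per-library depth was 3487940 to 8799800 counts on the compared genes, and a count of 3 corresponds to 0.336 to 0.892 CPM; such floors cover counting error only.

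Members and the 47 gene lists were chosen with earlier results of these data known. Named genes are the 15 highest and 15 lowest called genes with 1 direction on both days, called list members, pathway members with a defined role and 8 further genes, of which 7 occur in the study or its supplement by symbol or locus name and MEP2 came from an earlier analysis of these data. Other genes that did not pass were named for their role after values were seen. Promoters were read from RefSeq R64 by locus name; 4293 of 4345 genes matched. Alternatives were RLE and total-read scaling, DESeq2 1.42.0, other filters and gene sets, no block, left-out libraries and the study's chi-square approach.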

Additional observations from a re-analysis of the deposited data

How the results depend on the processing

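The numbers of called genes, and in some settings their balance, moved with the processing. Against 432 higher and 575 lower genes, the fit with no replicate block gave 77 and 130, RLE scaling 276 and 357, and all 8 libraries with the genes measured in every species 246 and 276, of 2707 genes tested. The chi-square approach of the study was rebuilt over 4345 genes. It called genes at an unadjusted combined p under 0.01, and here also required the same direction on both days, so its limits are unlike those above. It turned the balance, with 346 lower and 432 higher (55.53% of its calls higher against 42.9%). Of its calls 71.85% were called here too. The study itself reported more called genes for this pair than this rebuild gave. With 1 library left out and no block, the counts ranged from 50 to 273 for higher and from 49 to 354 for lower genes, and without S. paradoxus replicate 1 the balance was about even (50 and 49); these fits have fewer samples and assume that the lone library varies like the other species. RLE scaling moved the median of all genes from -0.08 to -0.02. The other settings (total-read scaling, DESeq2, count filters, all aligned reads, length and overlap limits) kept both counts within 1.5 times.

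Of 289 named genes that passed, 202 did not pass with no replicate block, 128 in the chi-square approach, 93 with RLE scaling and 34 with DESeq2. Of the 30 genes farthest above or below, 7, 7, 0 and 3 did not pass in these settings. The cause was not tested. Log2 fold changes that changed sign were those of MAK21 (-2.44 to 0.014 with 1 library left out), CAR2 (-0.11 to 2.78) and, among genes that did not pass, MEP2 (-4.72 to 0.43), MSN2 (-0.052 to 0.78), HSP26 (-0.64 to 1.98) and IPP1 (-0.48 to 0.35, 0.019 over 8 libraries and 0.0059 in the chi-square approach). Leaving out a library or a whole day gave these ranges. Depth limits genes under about 10 reads, and 2 cultures per species limit the estimate of spread.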
